A study of Mus musculus with 6 samples.

Results

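Monoamines, the catecholamines and serotonin, are made in pancreatic islet cells, and 9 genes of their synthesis, vesicular transport and breakdown were examined in islets of Sec16b-/- mice. The genes were listed by pathway role, with earlier results of these data known. Th was chosen by its values in these same libraries, so Th is described here and not tested. Of the 9 listed genes, 8 stood in the deposited table of 18437 genes, and all 8 passed a filter on low values that kept 16042 genes. Tph1, the tryptophan hydroxylase of peripheral tissues and of islets, was not analysed here. RNA came from isolated islets of male mice aged 30 weeks, with 3 libraries from Sec16b-/- animals (knockout) and 3 from Sec16b+/+ animals (wild type). Sec16b encodes a protein of the sites where secretory cargo leaves the endoplasmic reticulum. How the allele was made, and whether a library came from 1 animal or from a pool, is not given in the sources used here, so a p-value reflects only the spread among these libraries, which may be technical.

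Synthesis of catecholamines starts with tyrosine hydroxylase, encoded by Th, and synthesis of serotonin starts with tryptophan hydroxylase, encoded by Tph1 or Tph2. Both steps need the cofactor tetrahydrobiopterin, and both pathways then use the same decarboxylase, encoded by Ddc, before vesicular transporters load the product into secretory granules and monoamine oxidases break down what stays outside them. Beta cells, the insulin cells of the islet, are known to store dopamine and serotonin and to release them with insulin. In mice, serotonin synthesis in beta cells is known to rise in pregnancy, through prolactin receptor signalling and Tph1.

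Recovered reads ran from 22071895 to 24887766 per knockout library and from 22566274 to 26806787 per wild type library. Sec16b itself was at 553, 433 and 750 normalized counts in knockout replicates 1, 2 and 3, against 1655, 773 and 1786 in wild type replicates 1, 2 and 3, so its transcript remained in all 3 knockout libraries. All 10 beta cell markers were measured, and together they took 9.36% to 14.8% of reads in knockout and 11.5% to 15.1% in wild type libraries, with 9 of 10 on the lower side in knockout islets. Markers of acinar cells, the enzyme-secreting cells around the islets, were on the higher side in 10 of 10 and took 0.5004% to 11.4% of reads in knockout and 0.787% to 3.74% in wild type libraries. None of these markers passed limma's threshold, and the part of the beta cell level in the results was not tested. With the acinar level as a covariate, the log2 fold change was −0.86 for Slc18a1 and −0.19 for Gch1, against −0.89 and −0.19 without it. It was −0.55 for Slc18a2 (−0.37 without it), 0.14 for Ddc (0.03) and −0.02 for Maob (−0.10). For Tph2 it was 0.27 (0.20 without the covariate) and for Maoa 0.10 (0.10). In bulk islet RNA, fewer cells of a type and less RNA per cell cannot be told apart.

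The proximal promoter of Th is known for a cAMP response element that responds to CREB and related factors. The windows below run from 250 bases before to 50 bases after the transcript start, in the RefSeq table on build GRCm38.p6, and are shown because they alone among 9 windows of 7 listed genes held that element. Capitals mark the cAMP response element TGACGTCA and the AP-1 element TGANTCA, searched on both strands. Of 32817 promoter windows of the same length in the table, 1.79% held the first element and 7.81% the second. The Th window lies at chr7:142899946-142900245 on the minus strand, and its cAMP response element begins 45 bases before the start and its AP-1 element 210 bases before it. The Slc18a2 window lies at chr19:59260628-59260927 on the plus strand, and its cAMP response element begins 4 bases before the start, with no AP-1 match. A window of Ddc also held an AP-1 match. A match describes the letters and not the binding of a factor.
Th: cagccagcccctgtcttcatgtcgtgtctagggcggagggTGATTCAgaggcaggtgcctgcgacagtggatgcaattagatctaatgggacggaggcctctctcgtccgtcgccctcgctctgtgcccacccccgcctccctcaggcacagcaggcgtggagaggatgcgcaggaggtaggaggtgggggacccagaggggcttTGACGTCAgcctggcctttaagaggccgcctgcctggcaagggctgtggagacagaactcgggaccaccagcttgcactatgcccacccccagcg
Slc18a2: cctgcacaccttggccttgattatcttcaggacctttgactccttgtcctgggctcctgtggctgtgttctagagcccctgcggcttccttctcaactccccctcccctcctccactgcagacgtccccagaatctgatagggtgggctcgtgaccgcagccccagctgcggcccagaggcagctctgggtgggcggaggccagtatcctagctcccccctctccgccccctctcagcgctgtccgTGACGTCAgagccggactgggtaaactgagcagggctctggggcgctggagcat

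Th, the rate-limiting enzyme of dopamine and noradrenaline synthesis, had a higher mean in knockout islets, but the genotypes overlapped. Its normalized count was 601, 1009 and 987 in knockout replicates 1, 2 and 3, against 415, 669 and 421 in wild type replicates 1, 2 and 3. Knockout replicates 2 and 3 exceeded all wild type libraries, whereas knockout replicate 1 was below wild type replicate 2. The means were 866 ± 229 in knockout and 502 ± 145 in wild type islets (SD, n = 3 each), and the log2 fold change was 0.78 (SE 0.27), or 1.72-fold higher. Of all genes kept, 4.82% had a change at least as large in size. These are the values for which Th was picked. Counting error was small beside the spread, since the fewest reads, 414 in wild type replicate 1, have an exact 95% Poisson interval of 375 to 456.

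**Figure D1:**
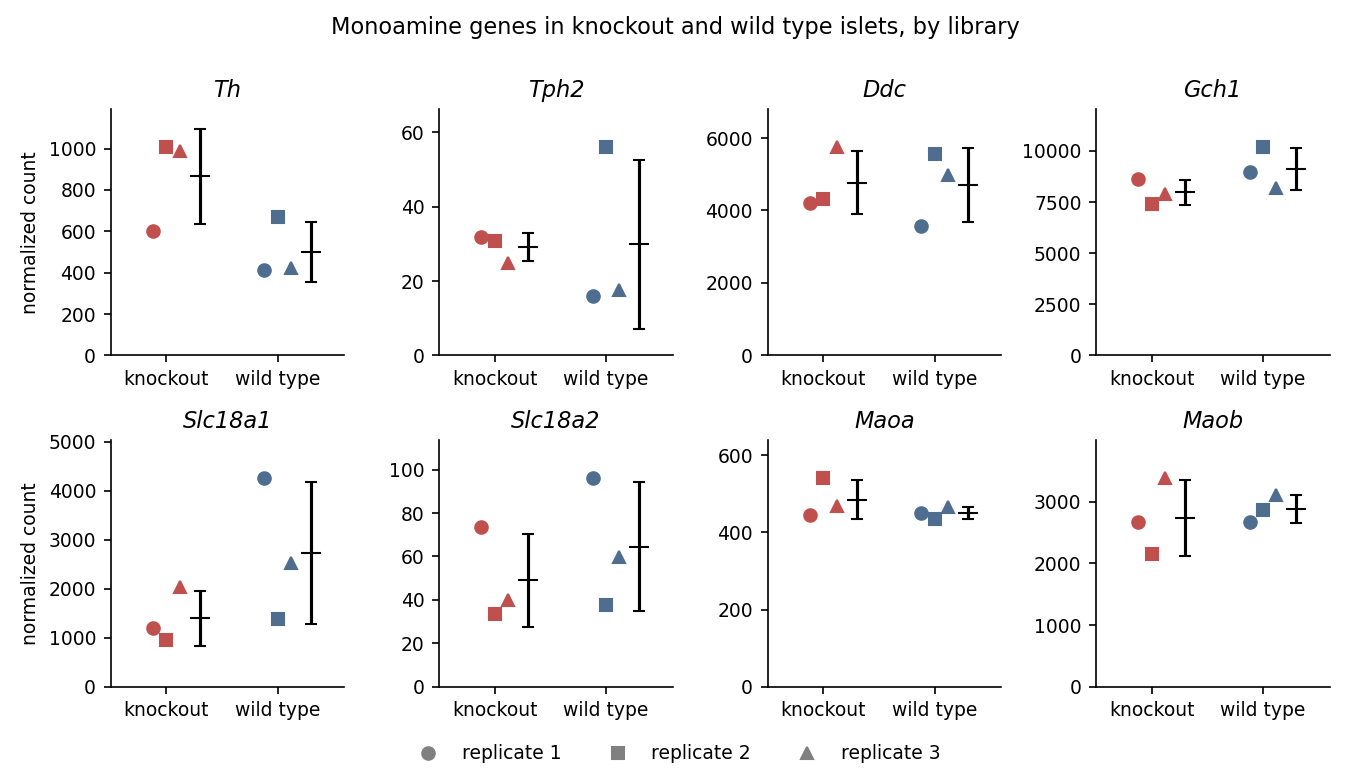
Normalized counts of the 8 measured genes (y axes from 0, scaled per gene) in knockout libraries (left in each panel) and wild type libraries (right), with symbols for replicates 1, 2 and 3 and black bars for mean ± SD (n = 3). In Th, knockout replicates 2 and 3 (1009 and 987) lie above all wild type libraries, and in Slc18a1 wild type replicate 1 (4266) lies far above the rest; every gene has overlapping groups.

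The serotonin side of the pathway was low at its measured hydroxylase. Tph2, the tryptophan hydroxylase best known from brain neurons, was at 31.9, 30.9 and 24.9 normalized counts in knockout replicates 1, 2 and 3, against 16.0, 56.2 and 17.6 in wild type replicates 1, 2 and 3. The knockout values lay close together, and the wild type values lay on either side of them. Behind these stood 25 to 33 recovered reads per knockout library and 16 to 58 per wild type library. The exact 95% Poisson interval, which covers counting error only, was 44.0 to 75.0 reads in wild type replicate 2 and 9.15 to 26.0 in wild type replicate 1, so these wild type libraries differed by more than counting error. The log2 fold change was 0.20 (SE 0.51), with a 95% interval of −1.02 to 1.41, an interval that includes a change of 2-fold in either direction.

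The enzymes used by both pathways were abundant and close between the genotypes. Ddc, the aromatic amino acid decarboxylase that yields dopamine and serotonin, was at 4209.8, 4318 and 5761 normalized counts in knockout replicates 1, 2 and 3, against 3564, 5556 and 4988 in wild type replicates 1, 2 and 3. The ranges overlapped, with wild type replicate 1 below and knockout replicate 3 above all libraries of the other genotype, and the log2 fold change was 0.03 (SE 0.20, 95% interval −0.44 to 0.50). Gch1, GTP cyclohydrolase, which begins tetrahydrobiopterin synthesis, was at 8633, 7401 and 7884 in knockout replicates 1, 2 and 3, against 8989, 10209 and 8166 in wild type replicates 1, 2 and 3. Knockout replicates 2 and 3 were under all wild type libraries, and knockout replicate 1 lay between wild type replicates 3 and 1. The means were 7973 ± 621 in knockout and 9121 ± 1028 in wild type islets (SD, n = 3 each), a log2 fold change of −0.19 (SE 0.12, 95% interval −0.48 to 0.09).

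Of the vesicular monoamine transporters, Slc18a1 had the widest difference among the tested genes of the list. It encodes the form of endocrine cells and was at 1202, 963 and 2034 normalized counts in knockout replicates 1, 2 and 3, against 4266, 1387 and 2531 in wild type replicates 1, 2 and 3. Knockout replicates 1 and 2 were under all wild type libraries, whereas knockout replicate 3 exceeded wild type replicate 2. The means were 1399.9 ± 562 in knockout and 2728 ± 1449.9 in wild type islets (SD, n = 3 each), a log2 fold change of −0.89 (SE 0.44), or 1.85-fold lower. Its 95% interval of −1.93 to 0.16 included no change, and limma gave an adjusted p of 0.993, while the two-sided exact permutation test of Slc18a1 gave p = 0.2. Wild type replicate 1 carried much of the difference, and without it the log2 fold change was −0.49. Of all genes kept, 3.40% had a change at least as large in size.

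Slc18a2, the transporter form of monoamine neurons, was at 73.6, 33.7 and 39.9 normalized counts in knockout replicates 1, 2 and 3, against 96.2, 37.8 and 59.8 in wild type replicates 1, 2 and 3. Replicate 1 was the highest and replicate 2 the lowest library in each genotype, and the ranges overlapped. The log2 fold change was −0.37 (SE 0.45, 95% interval −1.44 to 0.70), and −0.04 without wild type replicate 1. Recovered reads were 36 to 60 per knockout library and 39 to 96 per wild type library. In GENCODE M21, 111 bases of its exons overlap exons of the antisense gene Gm29261, and the strand setting of the counting is not given in the sources used here, so reads of the antisense gene could be included. Per kilobase of merged exons, Slc18a1 exceeded Slc18a2 by 15.8, 27.6 and 49.4 times in knockout replicates 1, 2 and 3, and by 42.9, 35.5 and 41.0 times in wild type replicates 1, 2 and 3. The endocrine form was thus the more abundant in every library.

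Sympathetic neurons and adrenal chromaffin cells also use these transporters, and their markers were highest in wild type replicate 1, as the transporters were. Of 8 such markers 4 were measured, 2 higher and 2 lower in knockout islets, and their summed normalized count ranged from 125 to 277 in knockout and from 137 to 617 in wild type libraries. The highest sum, 617, was in wild type replicate 1. Among the knockout libraries the sum was highest in replicate 1 (277), as was Slc18a2, whereas Slc18a1 was highest in replicate 3, where the sum was 178. Prph, the intermediate filament peripherin of peripheral neurons, was at 84.7, 6.56 and 3.99 in knockout replicates 1, 2 and 3, against 370 in wild type replicate 1 and 15.5 and 68.6 in wild type replicates 2 and 3. Schwann cell markers, 4 of 6 measured and all 4 on the lower side, summed to 175 to 180.4 in knockout and 199 to 302 in wild type libraries. Dbh, Phox2a and Slc6a2, defining genes of noradrenergic cells, were not analysed here. Of 9 mast cell markers, 2 were measured, Kit and Hdc, and both are also expressed outside mast cells. The part of these cells in the transporter values was not tested.

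The monoamine oxidases were close between the genotypes. Maoa, the oxidase that prefers serotonin and noradrenaline, was at 444, 541 and 467 normalized counts in knockout replicates 1, 2 and 3, against 451, 434 and 466 in wild type replicates 1, 2 and 3. Apart from knockout replicate 2, the libraries lay within 434 to 467. The log2 fold change was 0.10 (SE 0.12, 95% interval −0.19 to 0.39). Maob, the oxidase that prefers phenylethylamine, was at 2669, 2160.2 and 3389 in knockout replicates 1, 2 and 3, against 2675, 2861 and 3114 in wild type replicates 1, 2 and 3. The knockout libraries spanned the wild type range on both sides, and the log2 fold change was −0.10 (SE 0.17, 95% interval −0.49 to 0.30). Maoa and Maob lie close in sequence, but no stretch of 50 bases was shared between their GENCODE M21 transcripts, where the longest shared run was 35 bases.

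Over all genes kept, limma called 0 of 16042 between knockout and wild type islets, or 0%, at an adjusted p under 0.05 by Benjamini-Hochberg. None of the 7 tested genes of the list was called, with adjusted p from 0.993 to 0.994. At an unadjusted p under 0.05, limma found 494 genes in all and 0 of the 7. With edgeR's quasi-likelihood test the count called was 0, and 509 genes, 0 of the 7 among them, had an unadjusted p under 0.05. DESeq2 called 13 genes and 0 of the 7, and had 576 genes with an unadjusted p under 0.05, where 1 of the 7, Slc18a1, was included. Taken alone, the 7 genes had two-sided exact permutation tests with p from 0.2 to 0.9, where 3 libraries against 3 cannot go below 0.1. The genotypes overlapped in all 8 genes, where 3.85% of all genes kept had every knockout library above every wild type library and 5.22% had every one below. Of the 7 tested genes, 3 had a positive and 4 a negative log2 fold change. With Th, which was picked by its values, the 8 genes had a median of −0.03, beside −0.003 over all genes kept.

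**Figure D2:**
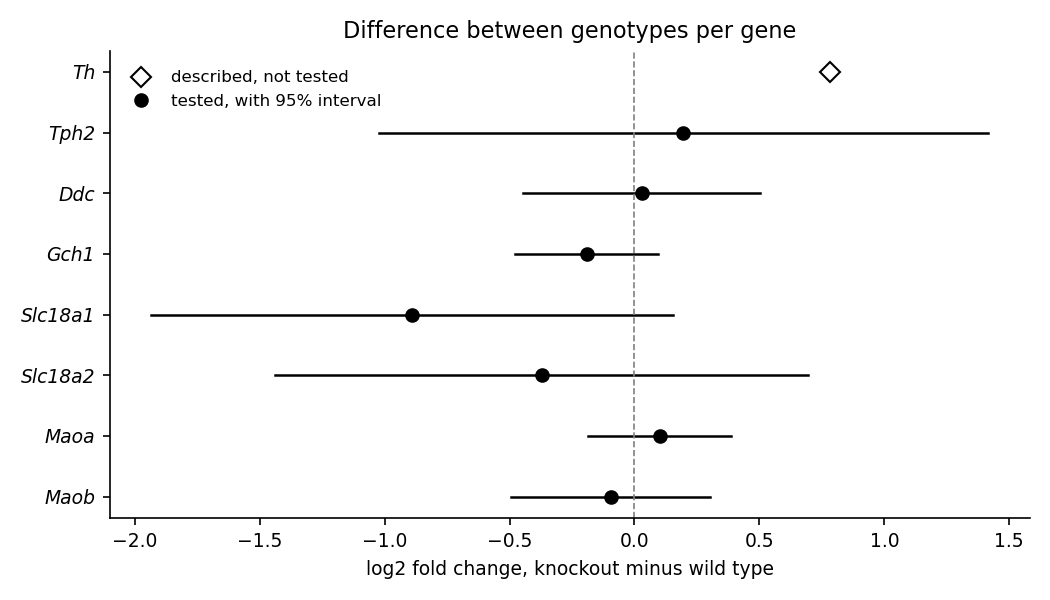
Log2 fold change, knockout minus wild type, of the 8 measured genes, ordered by role from synthesis to breakdown; filled points are tested genes with limma's 95% interval and the open diamond is Th, which is described without a test. Every interval includes 0, from the narrow interval of Gch1 (−0.48 to 0.09) to the wide one of Tph2 (−1.02 to 1.41).

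Levels were compared between genes only per kilobase of merged exons in GENCODE M21, an annotation that may differ from the one used for counting. Gch1, Ddc and Maob were highest, at 1275 ± 99.3, 1068 ± 194 and 982 ± 221 normalized counts per kilobase in knockout islets, against 1459 ± 164, 1054 ± 230.1 and 1034 ± 79.2 in wild type islets (SD, n = 3 each). They stood above the other 5 genes in all 6 libraries, and Ddc and Maob did not differ beyond their spread. Slc18a1 and Th came next, at 259 ± 104 and 366 ± 97.0 per kilobase in knockout islets, against 505 ± 268 and 212 ± 61.3 in wild type islets. Their order differed between libraries, with Th above Slc18a1 in 3 of 3 knockout libraries and in 1 of 3 wild type libraries. Since Th was picked for its pattern, this order was not tested.

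Maoa followed in all 6 libraries, at 116 ± 12.2 per kilobase in knockout and 108 ± 3.87 in wild type islets. Slc18a2 and Tph2 were the lowest in all 6 libraries, at 9.39 ± 4.11 and 10.2 ± 1.31 per kilobase in knockout islets, against 12.4 ± 5.65 and 10.4 ± 7.90 in wild type islets, and did not differ from each other beyond their spread. Maob exceeded Maoa per kilobase by 8.98, 5.96 and 10.8 times in knockout replicates 1, 2 and 3, and by 8.86, 9.85 and 9.98 times in wild type replicates 1, 2 and 3. The oxidase ratio was lowest in knockout replicate 2, where Maoa was at its highest and Maob at its lowest.

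**Figure D3:**
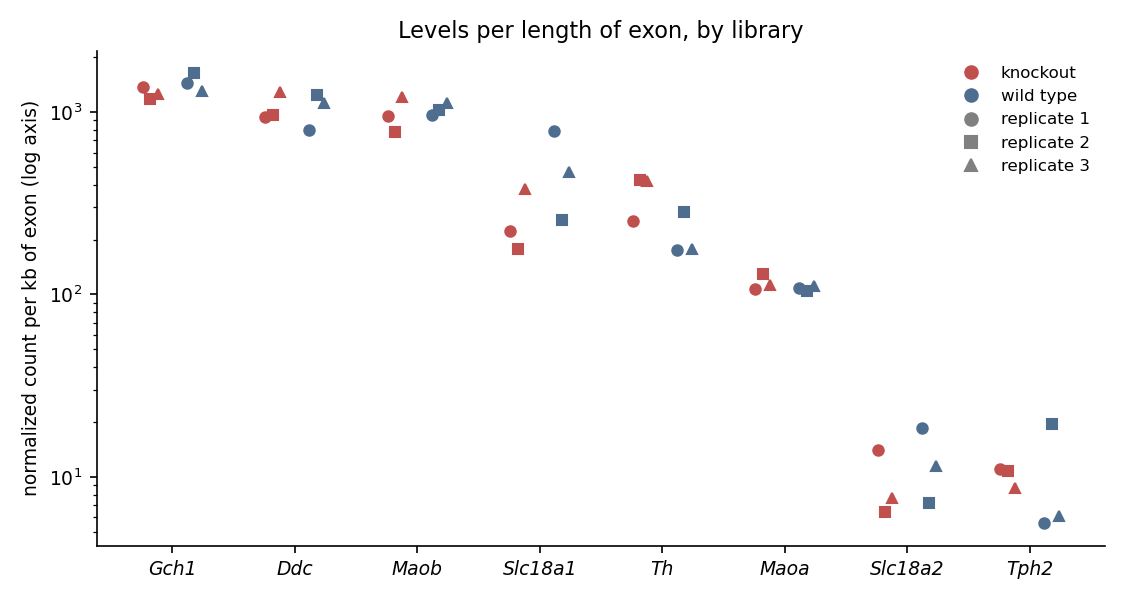
Normalized count per kilobase of merged exon (log axis) of each gene in each library, with knockout libraries left and wild type libraries right at each gene and symbols for replicates 1, 2 and 3. Gch1, Ddc and Maob lie highest in all 6 libraries, Slc18a1 and Th overlap in the middle, and Slc18a2 and Tph2 lie lowest.

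Genes with a pattern like that of Th were sought by the root mean square difference of centred log2 values over the 6 libraries, where a lower value is more alike. Of 14027 genes compared, the nearest were Tmem147os (0.11), Pdgfd (0.15), Tpmt (0.18) and Grin2c (0.18), beside a median of 0.56 over all genes kept. Pdgfd encodes a platelet-derived growth factor, Tpmt a thiopurine methyltransferase and Grin2c a subunit of NMDA glutamate receptors. Grin2c was at 229, 391 and 328 normalized counts in knockout replicates 1, 2 and 3, against 142, 240.1 and 207 in wild type replicates 1, 2 and 3. The other 3 lay between 14.1 and 53.4 normalized counts in every library, where counting error is larger.

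The mean level of markers of delta and PP cells, the somatostatin and pancreatic polypeptide cells of the islet, had nearly the same library order as Th. All 5 markers were measured, and 4 had a positive log2 fold change. Their mean log2 level was 11.82, 12.36 and 11.98 in knockout replicates 1, 2 and 3, against 11.79, 11.93 and 11.55 in wild type replicates 1, 2 and 3. Knockout replicates 2 and 3 were the highest for this mean, as for Th. Single markers differed from it. Sst, Rbp4, Ppy and Pyy were highest in knockout replicate 2, but Hhex was highest in wild type replicate 1 (319 normalized counts). Sst was also higher in wild type replicate 3 (27386.5) than in knockout replicate 3 (25382.5). Alpha cell markers, of the glucagon cells, were also on the higher side in 5 of 5, with a mean log2 level of 11.39 to 12.46 in knockout and 11.21 to 11.98 in wild type libraries. With the delta and PP marker level as a covariate, a fit chosen after seeing the data, the log2 fold change of Th was 0.40. The 11 immediate early genes, which respond to tissue handling among other stimuli, were all on the higher side in knockout islets, with a mean log2 level of 10.34 to 11.56 in knockout islets, against 10.04 to 10.43 in wild type islets. Their highest library, knockout replicate 1, had the lowest Th of the knockout libraries. With their level as a covariate the log2 fold change of Th was 1.27. With the acinar level as a covariate it was 0.92. Because the immediate early level was itself mostly higher in knockout islets, a fit over 6 libraries only partly separates it from genotype. The part of these marker levels in the values of Th was not tested.

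Genes for uptake of monoamines and their amino acid precursors were mixed. Of 11 listed genes, 7 were measured and 6 tested, with 2 higher and 4 lower, a median log2 fold change of −0.13 and 0 past limma's threshold in either direction. Slc29a4, the plasma membrane monoamine transporter that takes up serotonin and dopamine, was at 856, 1417 and 1362 normalized counts in knockout replicates 1, 2 and 3, against 691, 984 and 949.6 in wild type replicates 1, 2 and 3. As with Th, knockout replicates 2 and 3 exceeded all wild type libraries and knockout replicate 1 did not. Its log2 fold change was 0.45 (SE 0.23, adjusted p = 0.993), and its root mean square difference to Th was 0.25. For Slc7a8, a carrier of large neutral amino acids, the log2 fold change was −0.21 (SE 0.10). For Slc16a10, a carrier of aromatic amino acids, it was −0.26 (SE 0.18). The neuronal uptake genes Slc6a2, Slc6a3 and Slc6a4 were not analysed here.

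The remaining genes of tetrahydrobiopterin synthesis and recycling were close between genotypes. All 7 were measured, 6 were tested, 4 were higher and 2 lower, and the median log2 fold change was 0.06, with 0 past the threshold in either direction. Pts, the synthase that follows Gch1, was at 640.5, 783 and 849 normalized counts in knockout replicates 1, 2 and 3, against 577, 552 and 751 in wild type replicates 1, 2 and 3. Its ranges overlapped, and the log2 fold change was 0.28 (SE 0.17). For Spr, sepiapterin reductase, the last enzyme of the route, the log2 fold change was −0.11 (SE 0.12), and for Pcbd1, of the recycling route, 0.06 (SE 0.11). Gchfr, which encodes the feedback regulator of GTP cyclohydrolase, was at 0.879 to 5.98 normalized counts over the 6 libraries and was not tested.

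Among later synthesis and breakdown enzymes, 7 of 10 were measured and tested, with 5 higher and 2 lower, a median log2 fold change of 0.04 and 0 past the threshold in either direction. Dbh and Pnmt, which turn dopamine into noradrenaline and adrenaline, were not analysed here. For Sult1a1, a phenol sulfotransferase at 11.03 to 29.98 normalized counts over the 6 libraries, the log2 fold change was 0.64 (SE 0.38). For Akr1a1, an aldehyde reductase, it was −0.12 (SE 0.10).

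Receptors for monoamines were measured in part. Of 14 dopamine and adrenergic receptors 7 were measured and 4 tested, with 2 higher, 2 lower, a median log2 fold change of 0.03 and 0 past the threshold in either direction. Adra2a, through which noradrenaline restrains insulin release, was at 2476, 3138 and 4004 normalized counts in knockout replicates 1, 2 and 3, against 3214, 3352 and 3125 in wild type replicates 1, 2 and 3. The knockout libraries spread on both sides of the wild type libraries, and the log2 fold change was −0.04 (SE 0.17). For Adra1b, the log2 fold change was −0.12 (SE 0.62).

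Of 14 serotonin receptors 3 were measured, Htr1b, Htr2b and Htr7, and Htr7 alone was tested, with 0 past the threshold in either direction. Htr7, which raises cAMP, was at 33.1, 30.9 and 3.99 normalized counts in knockout replicates 1, 2 and 3, against 12.03, 0.968 and 5.28 in wild type replicates 1, 2 and 3. Knockout replicate 3 lay inside the wild type range, and the log2 fold change was 1.69 (SE 0.98, adjusted p = 0.993 by limma). With the immediate early level, itself mostly higher in knockout islets, as a covariate it was −0.54. Htr1b was at 4.396 to 11.04 normalized counts over the 6 libraries and Htr2b at 0.997 to 9.82, and neither passed the filter.

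Lactogen signalling genes were measured in full, with 3 of 7 higher, 4 lower, a median log2 fold change of −0.08 and 0 past the threshold in either direction. Prlr, the prolactin receptor, was at 3870, 2881 and 4763 normalized counts in knockout replicates 1, 2 and 3, against 7389, 4251 and 5482 in wild type replicates 1, 2 and 3. The 6 libraries stood in the same order for Prlr as for Slc18a1. Its log2 fold change was −0.57 (SE 0.25, adjusted p = 0.993 by limma, and unadjusted p = 0.028 with adjusted p = 0.9996 by DESeq2). For Stat5a and Stat5b, which carry the signal of the receptor, it was 0.13 (SE 0.13) and −0.20 (SE 0.16).

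**Figure D4:**
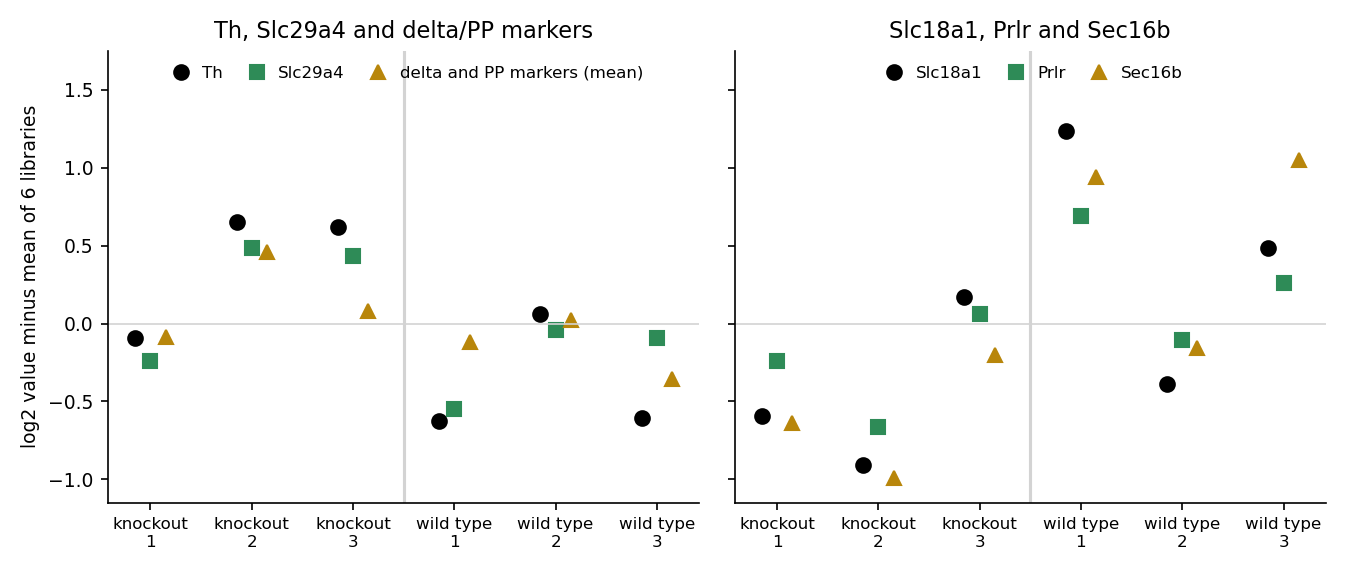
Log2 value minus the mean of the 6 libraries (y axis) in knockout libraries 1 to 3 (left of the grey line) and wild type libraries 1 to 3 (right), for Th, Slc29a4 and the mean of 5 delta and PP markers (left panel) and for Slc18a1, Prlr and Sec16b (right panel). Th and Slc29a4 are highest in knockout replicates 2 and 3, and Slc18a1 and Prlr stand in the same order over all 6 libraries.

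Over the 6 lists of other pathway genes, 38 of 63 listed genes were measured and 31 tested. Of the 31, 0 had all knockout libraries above or below all wild type libraries. Over all genes kept, 3.85% had all above and 5.22% all below. Of the 31, 17 had a positive and 14 a negative log2 fold change, with a median of 0.008. An unadjusted p under 0.05 in limma was found for 0 of the 31, beside 494 of the 16042 genes kept. In DESeq2, Prlr had an unadjusted p of 0.028, where 576 genes in all were under 0.05, and an adjusted p of 0.9996.

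**Figure D5:**
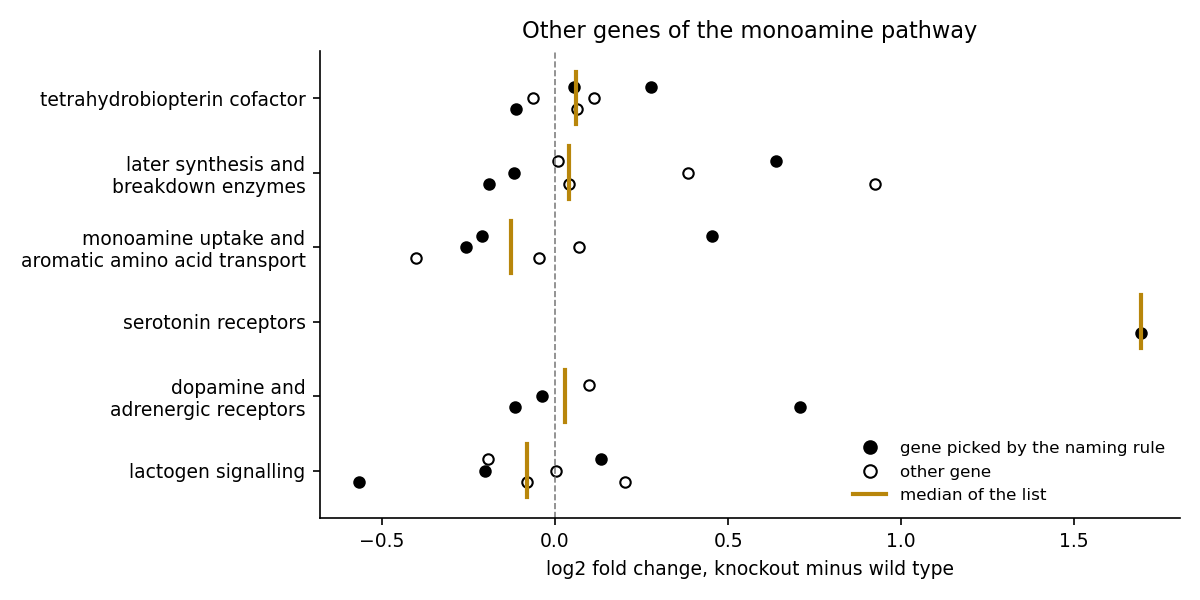
Log2 fold change, knockout minus wild type, of the 31 tested genes in 6 lists of the monoamine pathway; filled points are genes picked by the naming rule, open points the others, and vertical bars the list medians. Most points lie between −0.5 and 0.5, and Htr7 (1.69) stands alone at the right.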

How the data were processed

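RNA of mouse islets was sequenced in 6 libraries, 3 per genotype, grouped by the sample labels. HISAT2 was the aligner, per the submitters' processing notes. No version, counting tool, build or strand setting is given in the sources used here. The signal values deposited by the authors were size-factor normalized counts, since 100% of them were whole multiples of a single step per library, within 0.01 reads. Whole reads were recovered from these steps. No value is 0, so genes without reads in some library were not analysed here.

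The filter kept genes that reached 10 in 3 or more libraries. Testing used log2(value + 1), which understates changes of low genes, in limma 3.58.1 under R 4.3.3, with a mean-variance trend, knockout minus wild type, two-sided p and Benjamini-Hochberg adjustment over all genes kept. Alternatives on recovered reads used edgeR 4.0.16 and DESeq2 1.42.0, whose undefined adjusted p-values stayed undefined. Other alternatives changed pseudocount, filter, scaling, variance model, covariates, the replicate block and the libraries included. Among all genes kept, log2 fold changes had a median SE of 0.199. No libraries were duplicates, with a chi-square per degree of freedom of at least 57.0 between replicates. Poisson intervals cover counting error only.

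Named are the 9 listed genes, Dbh, up to 3 genes of smallest p in each pathway list, Sec16b, and the 4 genes most like Th, leaving out predicted genes. Of the genes picked this way, 2 are not reported here. The same search planned for Tph1 was not made. Members and lists were chosen with earlier results of these data known. Lengths came from GENCODE M21 and promoters from RefSeq.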

Additional observations from a re-analysis of the deposited data

How the results depend on the processing

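In 19 alternatives, limma and edgeR called 0 genes and DESeq2 13, 0 of the 7 tested listed genes was called, and 0 of the other pathway genes. Th was positive in all 19, from 0.40 to 1.27, and from 0.65 to 1.03 with single libraries left out. Since Th was picked by its values in these same libraries, its sign in these refits is description and not a test. Slc18a1 and Gch1 stayed negative in all 19, at −1.30 to −0.49 and −0.27 to −0.11, and Maoa positive. Whether replicate numbers pair the libraries could not be settled. Deviations of same-numbered libraries correlated at 0.43, 0.004 and 0.37, and those of differently numbered libraries at −0.41 to 0.20. The replicate block left the log2 fold change of Th at 0.78 and called 0 genes, with a lowest adjusted p of 0.837 in limma. For Slc18a1, limma's unadjusted p was 0.030 with the block and 0.084 without it. With the immediate early level as a covariate, the log2 fold change of Th was 1.27, that of Maob 0.18, of Ddc 0.45 and of Slc18a2 −1.07. The list medians in that fit were −0.65 (dopamine and adrenergic receptors), −0.38 (lactogen signalling), 0.040 (uptake and transport) and −0.54 (serotonin receptors). That level was itself mostly higher in knockout islets, so the fit only partly separates it from genotype. With the delta and PP level, chosen after seeing the data, Maob was at 0.10, Slc18a2 at 0.11 and Tph2 at −0.18. Tph2 was at −0.028 with edgeR and −0.024 with DESeq2, and its mean normalized count was 29.2 in knockout and 29.9 in wild type islets. Ddc was at −0.11 with array weights. The cause of these shifts was not tested. With single libraries left out, Tph2 ran from −0.12 to 0.76, Ddc from −0.16 to 0.16, Maob from −0.26 to 0.063 and Slc18a2 from −0.70 to −0.037. The lactogen median was 0.065 without knockout replicate 3, and the dopamine and adrenergic receptor median ran from −0.099 to 0.48. Tph2 did not pass a filter of 50 and has no value there, and Htr7 likewise. With 3 libraries per genotype, intervals for Tph2, Slc18a1 and Slc18a2 reach past 2-fold.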

Other observations

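Slc18a1 had close neighbours in pattern, sought after its values were seen. Of 14027 genes compared by the root mean square difference of centred log2 values over the 6 libraries, the nearest were Syt17 (0.20), Lix1 (0.23), Iqsec3 (0.29) and Mcoln3 (0.29), beside a median of 0.75 over all genes kept. Mcoln3, a lysosomal cation channel, was at 44.2, 33.7 and 80.7 normalized counts in knockout replicates 1, 2 and 3, against 107, 66.8 and 106 in wild type replicates 1, 2 and 3. Among 16034 genes with predicted ones included, Sec16b ranked 12 in likeness to Slc18a1 (0.32), and Prlr ranked 14 (0.32). Within each genotype, Sec16b and Slc18a1 were both lowest in replicate 2. These genes share the 6 libraries and their cell makeup, and no relation between them was tested.

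Atp6v1b2, a proton pump subunit gene that GENCODE M21 places across Slc18a1 on the opposite strand with 0 shared exon bases, was at 14655, 16218 and 19152 normalized counts in knockout replicates 1, 2 and 3, against 21635, 20148 and 21624 in wild type replicates 1, 2 and 3.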
